A study of Mus musculus with 10 samples.

Results

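The genes described here encode the major histocompatibility complex (MHC) molecules that show peptides to T cells, with the proteins that load, regulate or accompany them. They were taken from the deposited table by symbol: every symbol beginning with H2-, and *B2m*, *Cd74*, *Ciita*, *Tap1*, *Tap2*, *Tapbp*, *Mr1*, *Cd1d1*, *Cd80*, *Cd86* and *Cd83*. This gave 52 genes of the 25233 entries with a symbol, among 62322 entries in all. Classical class I (2 genes), other class I (30), class I partners (4), class II chains (5), class II chaperones (6), the class II transactivator (1) and costimulation (3) are given apart. *H2-Ke6* carries the prefix by its place in the locus and encodes no MHC chain.

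Gene expression was measured by bulk RNA sequencing in hypertrophied hepatic stellate cells (hypHSCs) and quiescent hepatic stellate cells (qHSCs), 5 libraries each, from the liver of C57BL/6J mice. The hypHSCs came from mice fed the CDAHFD, a high-fat diet without choline and with defined amino acids that causes steatohepatitis and fibrosis. HypHSC 1 and 2 were obtained after 13 weeks of diet at 19 weeks of age, and hypHSC 3, 4 and 5 after 12 weeks at 18 weeks of age. Mice on the standard diet gave the qHSCs and were aged 36 weeks for qHSC 1, 2 and 5 and 34 weeks for qHSC 3 and 4. The labels name no transgene or reporter, and cells were gated on the fluorescence of their own droplets, green for hypHSCs and blue for qHSCs. Diet, age, digestion conditions, antibiotics in the buffers and gate all differed between the groups, so their effects cannot be told apart. The labels do not name the mouse behind each library, so n counts preparations and p-values measure the spread between these.

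MHC class I molecules, a heavy chain with beta-2 microglobulin (*B2m*), are made by most nucleated cells and show peptides from the cytosol that the TAP transporter carries into the endoplasmic reticulum. Class II molecules, an alpha and a beta chain, are made mainly by dendritic cells, B cells and macrophages and show peptides from endosomes. The invariant chain (*Cd74*) guides and plugs new class II molecules, and H2-DM exchanges its remnant for peptide. In the liver, Kupffer cells and dendritic cells are the best known class II-positive cells, and stellate cells have been described to take up class II expression under interferon-gamma.

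The hypHSC libraries held 30534719 to 43283589 reads on genes with a symbol, and the qHSC libraries 35640104 to 47317028. A floor of 3 reads corresponded to 2.25 to 4.54 normalized counts, a limit for counting error only, since amplified reads are not independent molecules. The mitochondrial share of reads was 2.21% to 12.8% in hypHSCs, highest in hypHSC 1 and 2 (12.8% and 7.27%), and 1.25% to 1.61% in qHSCs. HypHSC 5 had the fewest genes with a read, 14028. The stellate cell label was checked against its markers, and all 9 listed (*Lrat*, *Des*, *Reln*, *Hgf*, *Pdgfrb*, *Colec11*, *Rgs5*, *Dcn* and *Hand2*) were lower in hypHSCs. Their summed level was 23229 to 52779 in hypHSCs and 934266 to 1356117 in qHSCs, in normalized counts, and none was at 0 in a whole group. All 10 core macrophage markers (*Csf1r*, *Adgre1*, *Cd68*, *Lyz2*, *C1qa*, *C1qb*, *C1qc*, *Mertk*, *Fcgr1* and *Spi1*) were higher in hypHSCs, with a summed level of 965304 to 1358108 in hypHSCs and 4794 to 92025 in qHSCs. In the hypHSC libraries these marker transcripts therefore went against the label, and hypHSC is used below as the name of the sorted fraction. The study reported desmin, cRBP1 and alpha-SMA protein in sorted hypHSCs. In its RNA results *Vim* was higher in hypHSCs, and *Acta2*, *Col1a1*, *Col1a2* and *Col3a1* did not change. In bulk RNA, fewer cells of a type and less RNA per cell cannot be told apart.

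Antigen presentation genes split by class. Both classical class I genes, 15 of 21 other class I genes tested, the light chain and the peptide transporter were lower in hypHSCs, whereas the 3 class II chains tested, 4 of 6 chaperones and the 3 costimulatory genes were higher, and so was 1 class I gene, *H2-M2*. Of the 52 genes, 41 had 10 normalized counts or more in 5 or more libraries and were tested with limma on log2(normalized count + 1). A differentially expressed gene (DEG) had a log2 fold change of 1 or more in size and an adjusted p not above 0.05. There were 11 DEGs higher and 20 lower, and 10 genes were not called. Over all 14630 genes tested, 17.8% were called higher and 21.7% lower. The median log2 fold change was -1.09 over these 41 genes and -0.20 over all genes tested. With each library scaled to the same total, all genes split into 2013 higher and 4243 lower, against 2602 and 3177 with the deposited scaling, and scaling on *Hprt*, *Pgk1* and *Actb* gave 1472 and 7020. In 21 of the 41 genes every hypHSC library lay below every qHSC library, and in 8 every one lay above, where 22.0% and 17.6% of all genes did so.

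**Figure D1:**
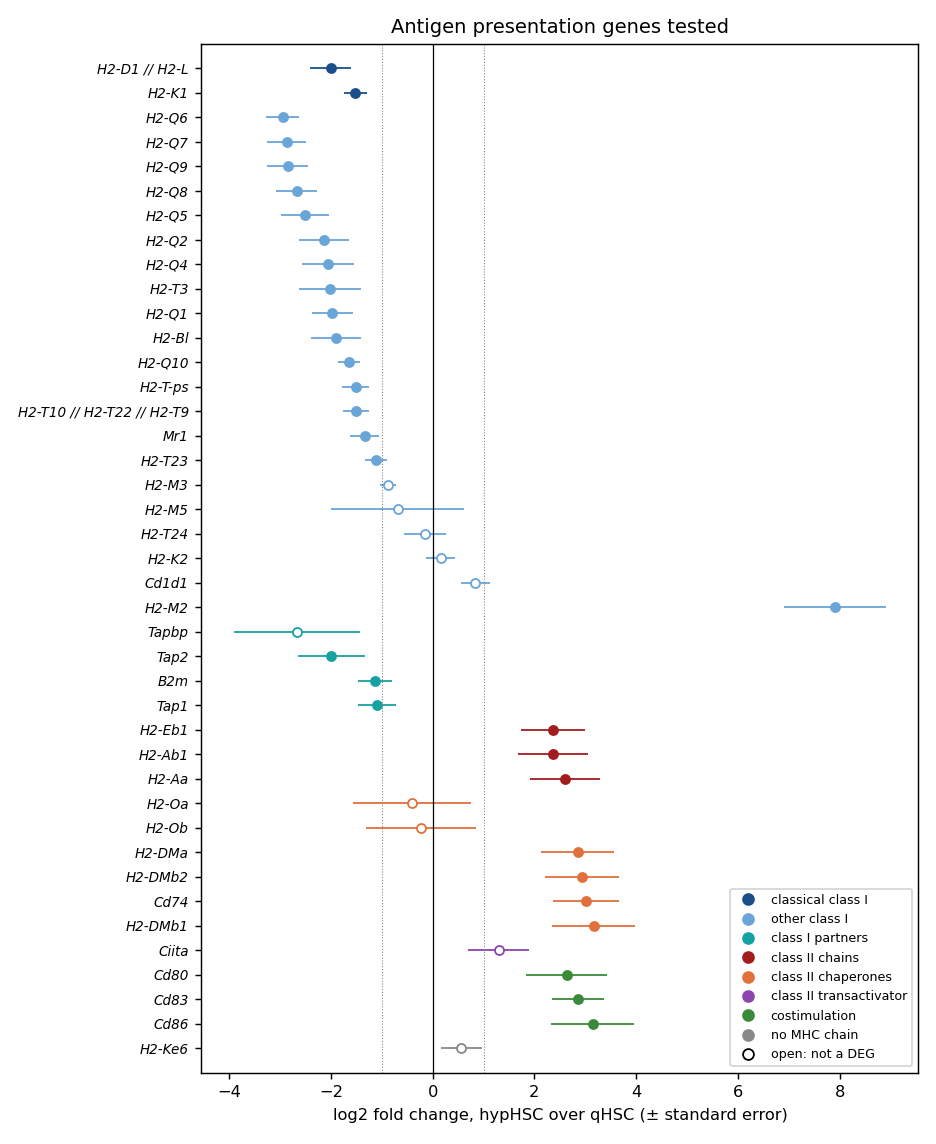
Log2 fold change of the 41 tested genes, hypHSC over qHSC, with the standard error of limma as bars, grouped and coloured by class. Filled points are DEGs, dotted lines mark a log2 fold change of 1 in each direction. The 2 classical and 15 of 21 other class I genes lie filled to the left, and the 3 class II chains, 4 of 6 chaperones and the 3 costimulatory genes lie filled to the right.

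As a share of the reads on genes with a symbol, the 52 genes together held 1.18% to 2.51% in hypHSCs and 3.54% to 4.87% in qHSCs. *B2m* alone held 0.471% to 1.19% in hypHSCs and 1.84% to 2.57% in qHSCs. For the 30 class I heavy chain genes with an H2- symbol the share was 0.157% to 0.52% in hypHSCs and 1.35% to 1.96% in qHSCs, and the groups did not overlap for either. *Cd74* moved the other way, with 0.448% to 0.769% in hypHSCs and 0.0162% to 0.292% in qHSCs, also without overlap. The 5 class II chain genes held 0.0564% to 0.175% in hypHSCs and 0.00424% to 0.0679% in qHSCs, and here hypHSC 5 lay below qHSC 3 and qHSC 4.

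**Figure D2:**
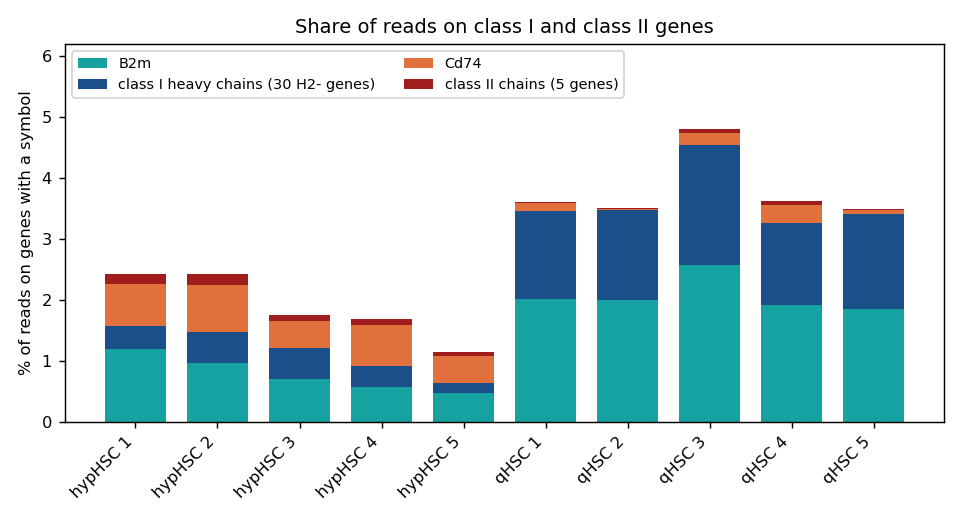
Percentage of reads on genes with a symbol that fell on *B2m*, the 30 class I heavy chain genes, *Cd74* and the 5 class II chain genes, stacked for each library. The blue and green segments are larger in all 5 qHSC libraries, and the orange *Cd74* segment is larger in all 5 hypHSC libraries.

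The class II chain genes lie side by side in the MHC locus on chromosome 17, and their promoters are known for a shared X box and Y box, bound by the RFX and NF-Y factors, to which CIITA docks. To show these elements, the 200 bases before the start of 2 called class II genes are printed from RefSeq on GRCm38.p6, a different build from that of the deposited table. Capitals mark the X box core GCAAC and the Y box CTGATTGG. *H2-Aa* is at chr17:34287824-34288023 (minus strand) and *H2-Eb1* at chr17:34305667-34305866 (plus strand).
H2-Aa: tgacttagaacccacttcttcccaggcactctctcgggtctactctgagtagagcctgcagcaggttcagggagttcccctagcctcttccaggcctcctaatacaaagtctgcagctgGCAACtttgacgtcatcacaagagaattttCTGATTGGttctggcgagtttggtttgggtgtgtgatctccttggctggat
H2-Eb1: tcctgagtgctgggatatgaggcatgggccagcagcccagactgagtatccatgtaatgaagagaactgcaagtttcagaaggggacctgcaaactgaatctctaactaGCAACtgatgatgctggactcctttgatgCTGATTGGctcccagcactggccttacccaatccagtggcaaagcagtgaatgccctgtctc
In *H2-Aa* the X box core began 81 bases and the Y box 51 bases before the start, and in *H2-Eb1* 91 and 62 bases. Windows of 250 bases before the start were read for 37 of the 55 symbols that the 52 entries hold. Searched on both strands, GCAAC was in 29.9% of all 32851 windows and CTGATTGG in 3.83%. In the 37 windows of these genes, GCAAC was in 13 and CTGATTGG in 18. Neither was particular to class II. CTGATTGG was also in the windows of *H2-D1*, *H2-Q6*, *H2-Q7* and *H2-T23*, which were called lower. The window of *H2-D1* held both, and they are not marked in its sequence printed below. An X box core followed by a Y box on 1 strand, with 20 to 30 bases between them, was in 20 windows (0.0609%), 4 of them those of *H2-Aa*, *H2-Eb1*, *H2-Eb2* and *H2-Oa*. That spacing was set after the windows of these genes had been seen. Of these 4, *H2-Aa* and *H2-Eb1* were called higher, *H2-Oa* was not called and *H2-Eb2* was too low to test.

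All 3 class II chains that could be tested rose in hypHSCs. *H2-Aa* (chromosome 17, 34501718 to 34506797 on GRCm39, as are all gene positions below), which encodes the alpha chain of I-A, had 35787, 38136, 17132, 19302 and 10528 normalized counts in hypHSC 1 to 5 and 3918, 648, 8373, 10859 and 2473 in qHSC 1 to 5. HypHSC 1 and 2 were the highest libraries and qHSC 2 the lowest by far, and hypHSC 5 lay just below qHSC 4, so the groups overlapped by 1 library. Its log2 fold change was 2.60 ± 0.69 (SE), adjusted p = 0.00884. *H2-Ab1* (chromosome 17, 34482201 to 34488392), the beta chain that pairs with it, had 15376, 16113, 7759, 17798 and 11318 normalized counts in hypHSC 1 to 5 and 2937, 374, 7559.6, 6469 and 1952 in qHSC 1 to 5. Here the lowest hypHSC library, hypHSC 3, was above the highest qHSC library, qHSC 3, by a small margin. On the log2 scale the change was 2.37 ± 0.69 (SE), adjusted p = 0.015. *H2-Eb1* (chromosome 17, 34524841 to 34535648), the beta chain of I-E, had 12861, 17127, 7351, 8011 and 5130.3 normalized counts in hypHSC 1 to 5 and 2210.2, 377, 4082, 4756 and 1140.4 in qHSC 1 to 5. HypHSC 5 was again the lowest of its group and stayed above qHSC 4, so the groups did not overlap. Its log2 fold change was 2.36 ± 0.63 (SE), adjusted p = 0.00953. With the 3 hypHSC libraries at 12 weeks (3 to 5) alone, none of the 3 chains was called, with log2 fold changes of 2.09 (adjusted p = 0.0607), 2.19 (adjusted p = 0.0674) and 1.90 (adjusted p = 0.063) for *H2-Aa*, *H2-Ab1* and *H2-Eb1*. *H2-Ab1* also missed the threshold when the libraries were scaled on *Hprt*, *Pgk1* and *Actb*, at 1.43 (adjusted p = 0.0783).

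The remaining chains were near the floor. *H2-Ea*, the I-E alpha chain, which mice of the b haplotype such as C57BL/6J do not make as protein, had 1.05 to 10.8 in hypHSCs and 0.86 to 3.75 in qHSCs and at most 8 reads in a library. *H2-Eb2* had 1.66 to 32.3 in hypHSCs and 0 to 2.57 in qHSCs, with 24 and 20 reads in hypHSC 1 and 2 and at most 4 in any other library. Neither passed the filter, and no fold change is given.

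Of the 6 chaperones that serve class II, 4 rose, and *Cd74* had by far the most normalized counts. *Cd74* (chromosome 18, 60936920 to 60945723), the invariant chain, had 285143, 313738, 161251, 306805 and 216168 normalized counts in hypHSC 1 to 5 and 39884, 5353, 61471, 95041 and 22189 in qHSC 1 to 5. All hypHSC libraries were above all qHSC libraries, and the qHSC libraries spread over a wide range from qHSC 2 to qHSC 4. Its log2 fold change was 3.02 ± 0.65 (SE), adjusted p = 0.00276. *H2-DMa* (chromosome 17, 34341805 to 34358075), the alpha chain of the peptide exchanger H2-DM, had 4018, 4000.2, 2254, 2489.5 and 1555 normalized counts in hypHSC 1 to 5 and 548, 61.4, 998, 1159 and 179.8 in qHSC 1 to 5. The groups did not overlap, and the log2 fold change was 2.85 ± 0.72 (SE), adjusted p = 0.00707. *H2-DMb1* (chromosome 17, 34372164 to 34379203), a beta chain of H2-DM, had 3617, 4343, 2627, 3447 and 1104 normalized counts in hypHSC 1 to 5 and 477, 37.5, 965, 955 and 159 in qHSC 1 to 5. Again hypHSC 5 was the lowest hypHSC library and stayed above qHSC 3 and 4, and the log2 fold change was 3.16 ± 0.81 (SE), adjusted p = 0.00778, against 2.56 with DESeq2 and edgeR. *H2-DMb2*, the second beta chain, had 2652, 2904, 1825, 2124 and 897 normalized counts in hypHSC 1 to 5 and 323, 35.8, 611, 798 and 171 in qHSC 1 to 5. Its groups did not overlap either, with qHSC 4 the highest of its group, and the log2 fold change was 2.94 ± 0.73 (SE), adjusted p = 0.0063. The 2 beta chain genes shared 28.5% and 27.2% of the 59-base stretches of their transcripts with other genes, mostly with each other, so reads could be split between them and their separate values are uncertain.

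*H2-Oa* and *H2-Ob*, whose product H2-DO restrains H2-DM and is best known from B cells, were low and were not called. *H2-Oa* had 0 to 112 in hypHSCs and 6.82 to 60.6 in qHSCs, which gave a log2 fold change of -0.40 ± 1.16 (SE), adjusted p = 0.794. *H2-Ob* had 0 to 91.1 in hypHSCs and 13.6 to 35.1 in qHSCs, at -0.22 ± 1.08 (SE), adjusted p = 0.878. In both, hypHSC 5 had no read, and without that library the signs turned, to 0.73 (adjusted p = 0.392) for *H2-Oa* and 0.93 (adjusted p = 0.108) for *H2-Ob*.

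*Ciita* (chromosome 16, 10297923 to 10345504), the transactivator on which class II transcription depends, was low in both groups, with 112, 285, 112, 75.5 and 43.9 normalized counts in hypHSC 1 to 5 and 54.3, 17, 105, 50.5 and 24.7 in qHSC 1 to 5. HypHSC 2 stood above the others, and the groups overlapped, with qHSC 3 near hypHSC 1 and 3. Its log2 fold change of 1.30 ± 0.60 (SE), adjusted p = 0.0974, was not past the threshold. Without hypHSC 5 it was, at 1.60 (adjusted p = 0.0367), and with hypHSC 1 to 3 alone, a choice made after seeing the data, it was 1.86 (adjusted p = 0.0255).

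**Figure D3:**
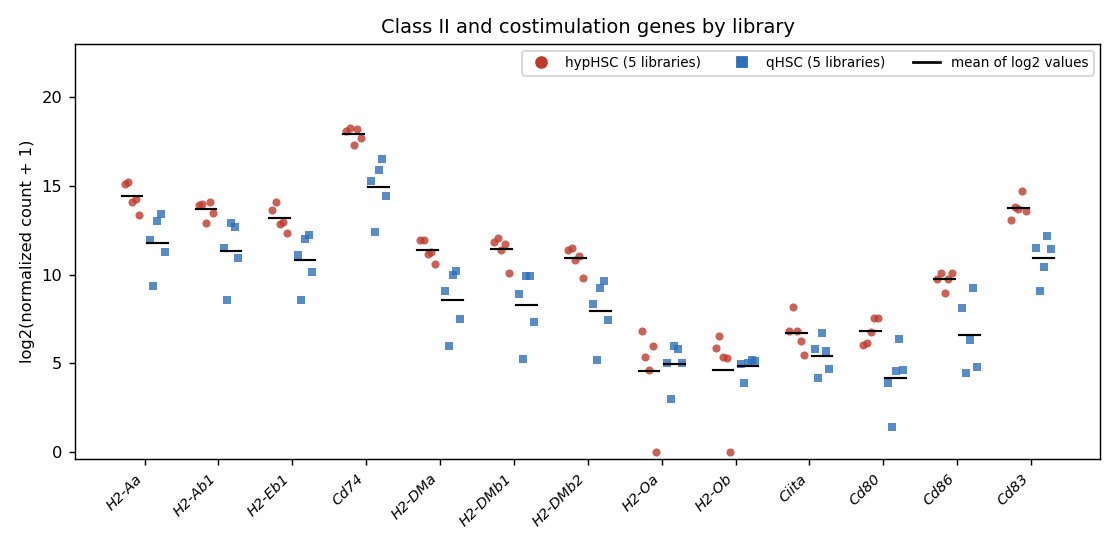
Log2(normalized count + 1) of 13 class II and costimulation genes in each library, hypHSC as circles and qHSC as squares, with the mean of the log2 values as a line. The groups are apart for *H2-Ab1*, *H2-Eb1*, *Cd74*, *H2-DMa*, *H2-DMb1*, *H2-DMb2* and *Cd83*, and the lowest square in most of these is qHSC 2.

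Markers of the cells best known for class II differed between the groups to unequal extents, and the core macrophage markers were the only list of these in which every gene was higher. Within the qHSCs, the core macrophage sum was 4794 in qHSC 2, 7294 in qHSC 5, 8428 in qHSC 3, 42615 in qHSC 1 and 92025 in qHSC 4. Both *Cd74* and this sum were lowest in qHSC 2 and highest in qHSC 4, while qHSC 3 held more *Cd74* than qHSC 1 with a smaller marker sum. *Cd74* counts per count of the core macrophage sum were 0.139 to 0.258 in hypHSCs and 0.936 to 7.29 in qHSCs, without overlap. This ratio was formed after the values had been seen and was not tested. Over all genes tested, 17.8% were called higher and 21.7% lower, and the marker counts that follow are descriptions beside these shares. Of 6 Kupffer cell markers, 3 were higher (*Vsig4*, *Cd5l*, *Folr2*) and none lower, with a sum of 18347 to 34538 in hypHSCs and 1270.4 to 44861 in qHSCs. Dendritic cell markers gave 3 higher (*Batf3*, *Clec9a*, *Ccr7*) and 1 lower (*Zbtb46*) of 9 tested and a sum of 1158 to 6053 in hypHSCs and 449 to 1255 in qHSCs. Of the B cell markers, *Cd79b* was higher, *Cd79a* was not called and *Pax5* had no read in any library, with a sum of 242 to 381 in hypHSCs and 5.11 to 128 in qHSCs. All 4 neutrophil markers tested were higher, with a sum of 1861 to 8039.8 in hypHSCs and 5.25 to 389 in qHSCs, and *Retnlg* was at 0 in all 5 qHSC libraries. *S100a9*, at most 7.7 in qHSCs, and *Retnlg* passed the filter through the hypHSCs alone. Their direction was therefore fixed by the filter. *Ly6g* and *Cxcr2* did not pass it and were not tested. Monocyte markers gave *Ccr2* and *Chil3* higher and *Plac8* lower of 4. Of 8 T and NK cell markers 2 were tested and neither was called, with a sum of 54.1 to 697 in hypHSCs and 5.11 to 171 in qHSCs. Among those that did not pass the filter, *Klrb1c* had 8.32 to 139 in hypHSCs and 0 to 0.75 in qHSCs. *Ncr1* went the other way, with no read in hypHSCs and 0 to 23.1 in qHSCs. Sinusoidal endothelial markers gave 2 higher and 1 lower of 6, hepatocyte markers 1 lower of 6, and of the mesothelial and portal fibroblast markers *Cd34* was tested and was higher. The part of these cells in the class II values was not tested.

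**Figure D4:**
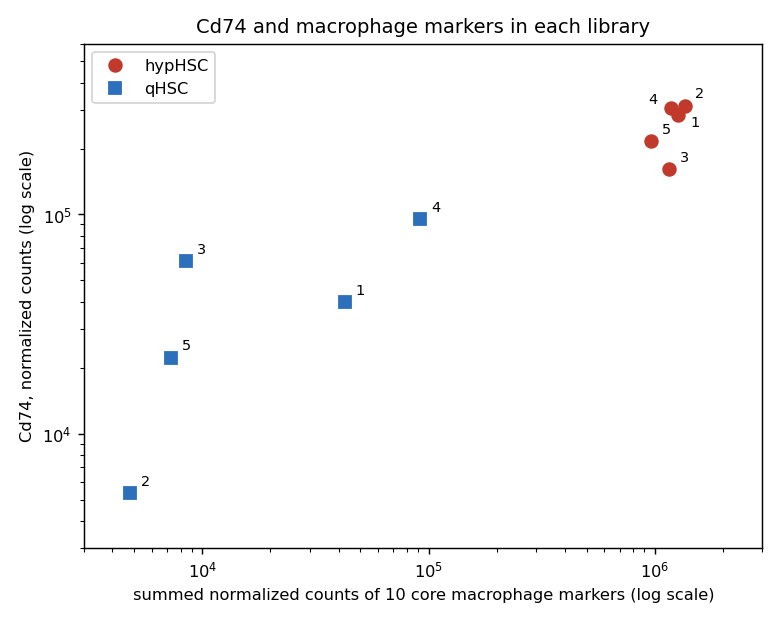
*Cd74* against the summed level of 10 core macrophage markers in each library, both in normalized counts on log axes, with replicate numbers beside the points. The 5 hypHSC libraries sit together at the upper right, and the qHSC libraries spread from qHSC 2 at the lower left to qHSC 4.

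Costimulatory genes were higher in hypHSCs, all 3 of them. *Cd86* (chromosome 16, 36424231 to 36486444), a ligand of CD28 and CTLA-4 on T cells, had 853, 1077, 506, 869.7 and 1092 normalized counts in hypHSC 1 to 5 and 274, 21.3, 78.7, 596 and 27 in qHSC 1 to 5. HypHSC 3 lay below qHSC 4, and the other hypHSC libraries were above all qHSC libraries. The log2 fold change was 3.15 ± 0.82 (SE), adjusted p = 0.0081, and the count models gave less, 2.19 with DESeq2 and 2.16 with edgeR, both past the threshold. *Cd80* (chromosome 16, 38275922 to 38316699), the related ligand, had 64.7, 68.3, 109, 188 and 186 normalized counts in hypHSC 1 to 5 and 13.6, 1.7, 22.8, 80.4 and 24 in qHSC 1 to 5. It was the lowest of the 3, qHSC 2 was below the floor, and qHSC 4 lay above hypHSC 1 and 2. This gave a log2 fold change of 2.64 ± 0.80 (SE), adjusted p = 0.0179, and it was not past the threshold with the scaling on *Hprt*, *Pgk1* and *Actb*, at 1.75 (adjusted p = 0.0857), or with hypHSC 1 to 3 alone, at 2.14 (adjusted p = 0.074). *Cd83* (chromosome 13, 43938588 to 43956609), a maturation marker of dendritic cells that also stabilises class II at the surface, had 8554, 14411, 13246, 26842 and 12489 normalized counts in hypHSC 1 to 5 and 2886, 546, 1398, 4602 and 2740.1 in qHSC 1 to 5. HypHSC 4 was the highest and the groups did not overlap, with a log2 fold change of 2.85 ± 0.52 (SE), adjusted p = 0.000899.

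Class I promoters are known for an upstream enhancer bound by NF-kappa B, an interferon-stimulated response element and a cyclic AMP response-like half-site. For both classical genes, and for *H2-M2*, which moved the other way, the 200 bases before the start are printed (RefSeq, GRCm38.p6). Capitals mark GGGGATTCC, TGACG and the interferon response core GAANNGAAA, which here stands on the opposite strand and so reads as its reverse complement, and in *H2-M2* the core alone. *H2-K1* is at chr17:34000348-34000547 (minus strand), *H2-D1* at chr17:35262894-35263093 (plus strand) and *H2-M2* at chr17:37483555-37483754 (minus strand).
H2-K1: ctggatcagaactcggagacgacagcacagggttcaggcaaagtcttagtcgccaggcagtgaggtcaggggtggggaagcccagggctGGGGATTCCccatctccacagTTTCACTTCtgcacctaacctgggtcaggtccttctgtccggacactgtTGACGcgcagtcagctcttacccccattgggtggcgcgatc
H2-D1: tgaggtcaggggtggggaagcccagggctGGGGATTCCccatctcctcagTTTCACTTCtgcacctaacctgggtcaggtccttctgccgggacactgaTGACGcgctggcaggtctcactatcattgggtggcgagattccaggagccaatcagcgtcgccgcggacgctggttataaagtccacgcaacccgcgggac
H2-M2: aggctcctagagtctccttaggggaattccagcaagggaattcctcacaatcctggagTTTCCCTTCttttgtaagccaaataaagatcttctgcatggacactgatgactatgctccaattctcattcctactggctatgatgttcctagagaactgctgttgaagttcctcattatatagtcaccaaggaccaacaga
GGGGATTCC was in 0.213% of all windows of 250 bases, GAANNGAAA in 6.31% and TGACG in 17.8%, on either strand. In the 37 windows of these genes the counts were 4, 8 and 14. TGACG was not particular to class I and also stands, unmarked, in the *H2-Aa* sequence printed above. GGGGATTCC followed by the interferon core in the orientation shown, with 5 to 20 bases between them, a spacing also set after the sequences had been seen, was in 5 windows (0.0152%), 4 of them those of *H2-K1*, *H2-D1*, *H2-Q6* and *H2-Q7*. These 4 genes were all called lower, but so were most class I genes, namely both classical genes and 15 of 21 other class I genes tested. Over all genes tested 21.7% were called lower. Whether these letters relate to the calls was not tested. The window of *H2-M2* held the interferon core without GGGGATTCC, but only these exact letters were searched. The similar letters ggggaattcc stand upstream of the core in the printed *H2-M2* sequence. The windows of *H2-Q4* and *H2-Q10*, both called lower, and of *H2-M3*, not called, also held the core without GGGGATTCC.

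Both classical class I genes fell in hypHSCs. *H2-K1* (chromosome 17, 34214987 to 34219321) had 63659, 47337, 41446, 49798 and 37589.7 normalized counts in hypHSC 1 to 5 and 116208, 116122, 185179.9, 114637 and 156099 in qHSC 1 to 5. The hypHSC libraries were all below the qHSC libraries, and qHSC 3 and 5 were the highest. Its log2 fold change was -1.52 ± 0.23 (SE), adjusted p = 0.000284. *H2-D1*, which shares its entry with *H2-L* (chromosome 17, 35481469 to 35486473), had 70999, 137749, 117428, 84150.4 and 26485 normalized counts in hypHSC 1 to 5 and 294145, 314150.1, 329058, 265511 and 331239 in qHSC 1 to 5. HypHSC 5 was the lowest, and again the groups did not overlap. The log2 fold change was -2.01 ± 0.41 (SE), adjusted p = 0.00185. *H2-K1* and *H2-D1* shared 25% and 37.4% of their 59-base stretches with other transcripts, chiefly with annotated genes that overlap them, which the unstranded reads cannot tell apart.

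Of the 4 partners of class I, 3 fell too. *B2m* (chromosome 2, 121978166 to 121983564), the light chain of every class I molecule, had 488833, 390561, 251427, 253760.4 and 225151 normalized counts in hypHSC 1 to 5 and 649279, 659055, 790525, 623794 and 653525 in qHSC 1 to 5. The values of hypHSC 1 and 2 were above those of hypHSC 3 to 5, and all were below the qHSC libraries. Between groups the log2 fold change was -1.13 ± 0.33 (SE), adjusted p = 0.0152, and with hypHSC 1 to 3 alone it was -0.89 (adjusted p = 0.0411), short of a log2 fold change of 1. *Tap1* (chromosome 17, 34406526 to 34416199), a subunit of the peptide transporter, had 966, 1113, 663, 358 and 391.7 normalized counts in hypHSC 1 to 5 and 1360.3, 1059, 2478, 1041 and 1192 in qHSC 1 to 5. HypHSC 2 lay above 2 qHSC libraries, so the groups overlapped. *Tap1* had a log2 fold change of -1.09 ± 0.37 (SE), adjusted p = 0.0283, and it was no longer called without hypHSC 4, hypHSC 5, qHSC 1 or qHSC 3, with values of -1.09 to -0.87. *Tap2* (chromosome 17, 34423453 to 34435295), the other subunit, had 2186, 2266, 1916, 649 and 149.7 normalized counts in hypHSC 1 to 5 and 4496, 4263, 4735, 3275 and 3079 in qHSC 1 to 5. HypHSC 4 and 5 were far below hypHSC 1 to 3, and none reached the qHSC libraries. The log2 fold change was -1.99 ± 0.66 (SE), adjusted p = 0.0268, and the call was lost without hypHSC 4, qHSC 1, qHSC 2 or qHSC 3, with values of -1.96 to -1.84. With hypHSC 1 to 3 alone *Tap2* was at -0.89 (adjusted p = 0.00168) and *Tap1* at -0.59 (adjusted p = 0.115), and neither was called. *Tap1* also fell short of 1 in size with libraries set to the same upper quartile, at -0.97 (adjusted p = 0.0356). *Tap2* missed the threshold with edgeR, at -1.44 (adjusted p = 0.0508). *Tapbp* (chromosome 17, 34138452 to 34148265), tapasin, which holds class I at the transporter, had 3487, 5561, 4919, 914 and 24.2 normalized counts in hypHSC 1 to 5 and 8948, 7863, 7923, 6165 and 6483 in qHSC 1 to 5. The single value of hypHSC 5 set the spread. The log2 fold change of -2.66 ± 1.24 (SE), adjusted p = 0.0979, was not past the threshold with that library, and was without it, at -1.28 (adjusted p = 0.0335). With all libraries, DESeq2 gave -1.30 and edgeR -1.29, neither past the threshold. Of the exon bases of *Tapbp*, 41.6% are covered by other annotated genes, and 11.7% of those of *Tap1* by *Psmb9*.

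**Figure D5:**
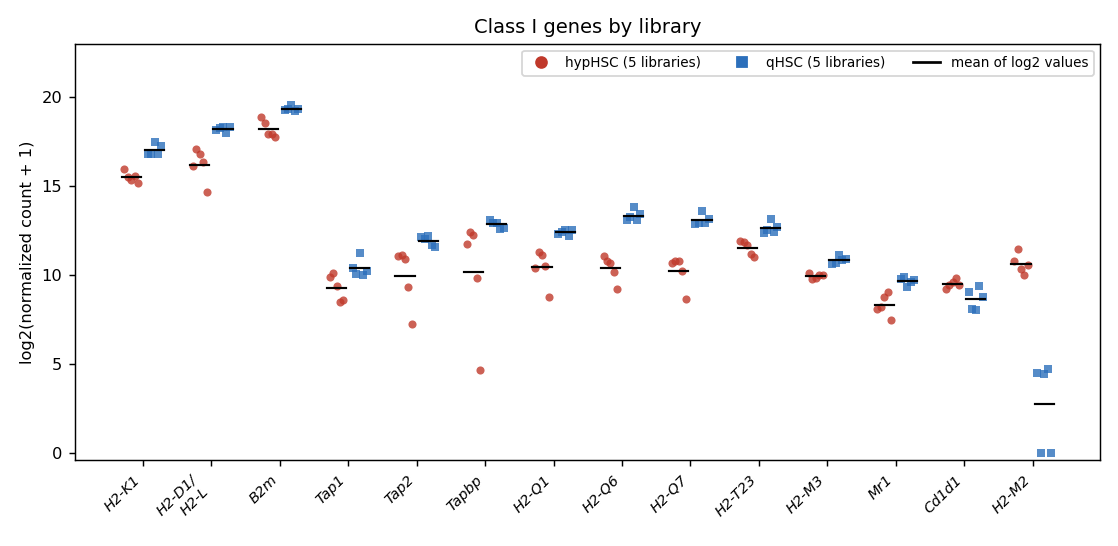
Log2(normalized count + 1) of 14 class I genes and partners in each library, hypHSC as circles, qHSC as squares, the mean of the log2 values as a line. Circles lie below squares in most genes, the lowest circle of *Tapbp* is hypHSC 5 with hypHSC 4 next, and *H2-M2* shows the reverse.

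Among the other class I genes, 21 of 30 were tested, 15 were lower, 1 was higher and 5 were not called. The largest falls among them were those of H2-Q genes of the Qa region. *H2-Q6* (chromosome 17, 35643826 to 35649031) had 2194, 1790.0, 1666, 1159 and 594 normalized counts in hypHSC 1 to 5 and 8703, 9928, 14893, 8696 and 11041 in qHSC 1 to 5. The highest hypHSC library was far below the lowest qHSC library, and the log2 fold change was -2.95 ± 0.33 (SE), adjusted p = 2.86e-05. *H2-Q7*, which encodes Qa-2, had 1660.1, 1808, 1816, 1188 and 405 normalized counts in hypHSC 1 to 5 and 7527, 7933, 12639, 7855 and 9302 in qHSC 1 to 5. Its hypHSC 5 value stood below the others, and the log2 fold change was -2.87 ± 0.38 (SE), adjusted p = 0.00011. *H2-Q9*, nearly identical in product to *H2-Q7*, had 1143, 1295, 1376, 745 and 265 normalized counts in hypHSC 1 to 5 and 5044, 5464, 8255, 5424 and 6377 in qHSC 1 to 5, at -2.85 (adjusted p = 0.000167). *H2-Q8* had 875, 1192, 1272, 708 and 231 normalized counts in hypHSC 1 to 5 and 4096, 4811, 5586, 3993 and 5220.3 in qHSC 1 to 5, at -2.67 (adjusted p = 0.000248). These 4 followed 1 order of groups, with every hypHSC library below every qHSC library. *H2-Q1* had 1358, 2545, 2281, 1474 and 436 normalized counts in hypHSC 1 to 5 and 5025, 5423, 5989, 4808 and 5991 in qHSC 1 to 5, at -1.97 (adjusted p = 0.00194). *H2-Q2* had 309, 551, 427, 316 and 63.5 normalized counts in hypHSC 1 to 5 and 1134, 1329, 1278, 1041 and 1215 in qHSC 1 to 5, at -2.14 (adjusted p = 0.00375). *H2-Q4* had 504, 849, 812, 326 and 96.8 normalized counts in hypHSC 1 to 5 and 1503, 1597, 1890.3, 1559 and 1978 in qHSC 1 to 5, at -2.06 (adjusted p = 0.00604). The groups were apart in all 3, and hypHSC 5 was the lowest library in each. *H2-Q5* had 140.1, 273, 280.2, 114 and 40.8 normalized counts in hypHSC 1 to 5 and 663, 672, 1035, 715 and 932 in qHSC 1 to 5, at -2.50 (adjusted p = 0.00119). *H2-Q10*, known as a secreted class I molecule of the liver, had 470.3, 714, 477, 538 and 578 normalized counts in hypHSC 1 to 5 and 2167, 1078, 1713, 1914 and 1986 in qHSC 1 to 5, at -1.65 (adjusted p = 0.000109), and here hypHSC 5 did not stand low.

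Reads of the H2-Q genes are uncertain between copies. The share of 59-base stretches found in other transcripts was 45.1% for *H2-Q7*, 35.8% for *H2-Q6*, 35% for *H2-Q4*, 31.4% for *H2-Q5* and 4.04% for *H2-Q2*. *H2-Q8* and *H2-Q9* were matched neither by symbol nor by position to the annotation used. Stretches shared with these genes were therefore not counted, and the shares above can be too low. The 9 H2-Q genes are therefore also given as a sum, which held 0.00567% to 0.0289% in hypHSCs and 0.111% to 0.173% in qHSCs of reads, without overlap.

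Of the H2-T entries and *H2-Bl*, all but *H2-T24* were lower in hypHSCs. *H2-T23* (chromosome 17, 36340866 to 36343594), Qa-1, which shows leader peptides of other class I molecules to the CD94/NKG2 receptors of NK cells, had 3824, 3675, 3276, 2373 and 2065 normalized counts in hypHSC 1 to 5 and 5266, 6031, 9136, 5530.3 and 6687 in qHSC 1 to 5. The groups were apart, with a log2 fold change of -1.11 ± 0.22 (SE), adjusted p = 0.0017. It fell short of a log2 fold change of 1 without hypHSC 5 (-0.98) or qHSC 3 (-0.99), and 36.5% of its 59-base stretches are shared with other transcripts. The joint entry of *H2-T10*, *H2-T22* and *H2-T9*, ligands of gamma delta T cells, had 6147, 5925, 4836, 4494 and 2592 normalized counts in hypHSC 1 to 5 and 11247, 11339.8, 19882, 11006 and 13487 in qHSC 1 to 5, at -1.50 (adjusted p = 0.000659). *H2-T-ps*, a pseudogene by name, had 680.5, 813, 706, 452 and 324 normalized counts in hypHSC 1 to 5 and 1249, 1531, 1849, 1511 and 2031 in qHSC 1 to 5, at -1.51 (adjusted p = 0.000741). *H2-Bl* had 209, 179, 189.6, 94.4 and 30.2 normalized counts in hypHSC 1 to 5 and 351, 423, 555, 346 and 542 in qHSC 1 to 5, at -1.90 (adjusted p = 0.00819), and 49.3% of its 59-base stretches are shared. None of these overlapped between groups. *H2-T3*, the thymus leukaemia antigen, was low, with 3.02 to 31.6 in hypHSCs and 50.7 to 104 in qHSCs, and was lower at -2.02 (adjusted p = 0.0171). *H2-T24* had 247, 261, 218, 145 and 63.5 normalized counts in hypHSC 1 to 5 and 182, 196, 288, 153 and 139 in qHSC 1 to 5. Its groups overlapped, and at -0.15 (adjusted p = 0.785) it was not called.

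The class I molecules that show other ligands to unconventional T cells did not move as 1 group. *Mr1* (chromosome 1, 155003023 to 155022561), which shows vitamin B metabolites to MAIT cells, had 271, 300.2, 438, 529.8 and 180.0 normalized counts in hypHSC 1 to 5 and 866, 959, 647, 782 and 834 in qHSC 1 to 5. The groups were apart, and the log2 fold change was -1.33 ± 0.29 (SE), adjusted p = 0.00274. *H2-M3* (chromosome 17, 37581125 to 37585377), which binds formylated peptides, had 1114, 868, 909, 1045 and 1047 normalized counts in hypHSC 1 to 5 and 1558, 1656, 2234, 1871 and 1923 in qHSC 1 to 5. All hypHSC libraries lay below the qHSC libraries, and the log2 fold change of -0.89 ± 0.16 (SE), adjusted p = 0.000781, did not reach 1 in size. *Cd1d1* (chromosome 3, 86903141 to 86906649), which shows lipids to NKT cells, had 590.2, 708, 779, 911 and 702 normalized counts in hypHSC 1 to 5 and 530.4, 277, 261, 682 and 429 in qHSC 1 to 5. HypHSC 1 lay below qHSC 4, and the log2 fold change of 0.84 ± 0.28 (SE), adjusted p = 0.0296, was short of 1 and was past it without qHSC 4, at 1.03 (adjusted p = 0.0109). *Cd1d1* shares 23.4% of its 59-base stretches with *Cd1d2*, and its sign turned with the scaling on *Hprt*, *Pgk1* and *Actb*.

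*H2-M2* (chromosome 17, 37791742 to 37794445) was the only class I gene among the DEGs that was higher in hypHSCs. It had 1780.1, 2899.7, 1302, 1012 and 1503 normalized counts in hypHSC 1 to 5 and 21.7, 0, 20.5, 25.7 and 0 in qHSC 1 to 5. No read was found in qHSC 2 or 5 and 24 to 30 reads in the other qHSC libraries, against 965 to 2801 reads in hypHSCs. Mean normalized counts differed by 125-fold. On the log2 scale the change was 7.90 ± 1.001 (SE), adjusted p = 7.63e-05, and it was 6.84 with a pseudocount of 5, 6.998 with DESeq2 and 6.99 with edgeR. None of its 59-base stretches was found in another transcript, and no other gene overlaps its exons in the annotation.

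The last genes of the class were undecided or low. *H2-K2* had 695, 1249, 1397, 1066 and 528 normalized counts in hypHSC 1 to 5 and 671, 659, 1053, 802 and 1060.2 in qHSC 1 to 5, at 0.16 (adjusted p = 0.679), and its sign turned with all libraries set to the same total. It is annotated as a transcribed pseudogene, its exon bases are wholly covered by other annotated entries and 91.3% of its 59-base stretches are shared with them, so its values are uncertain. *H2-M5* had 0 to 78.7 in hypHSCs and 1.81 to 29.9 in qHSCs, at -0.69 (adjusted p = 0.689). Of the 9 that were not tested, *H2-M10.5* had 0 to 15.5 in hypHSCs and 2.57 to 27 in qHSCs, *H2-M10.6* 0 to 15.5 in hypHSCs and 2.25 to 10.2 in qHSCs, *H2-M10.2* 0 to 11.6 in hypHSCs and 4.5 to 31.5 in qHSCs and *H2-M10.1* no read in hypHSCs and 0 to 20.2 in qHSCs. Genes of the H2-M10 group are known from vomeronasal neurons. *H2-M11*, *H2-M10.3* and *H2-M9* each had reads in 1 hypHSC library, at most 5.39 normalized counts, and *H2-M10.4* and *H2-M1* had no read in any library. Outside the MHC chains, *H2-Ke6*, a steroid dehydrogenase gene, had 102, 65.2, 79, 209.8 and 112 normalized counts in hypHSC 1 to 5 and 67.9, 73.3, 92.9, 43.6 and 84.7 in qHSC 1 to 5. It was not called, at 0.57 (adjusted p = 0.259), and 99.9% of its exon bases are covered by another annotated gene.

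Levels can be compared between genes only per transcript length, as FPKM (mean ± SD, n = 5 libraries per group). In hypHSCs *B2m* was at 7149 ± 2707 FPKM, *Cd74* at 4259 ± 1043, *H2-D1* at 1020.2 ± 556, *H2-K1* at 711 ± 167, *H2-Aa* at 519.9 ± 270.4, *H2-Ab1* at 267 ± 74.1 and *H2-Eb1* at 144 ± 72.3. In qHSCs *B2m* was at 19049.7 ± 2669 FPKM, *H2-D1* at 4426 ± 431, *H2-K1* at 2604 ± 667, *Cd74* at 971 ± 769, *H2-Aa* at 145 ± 119, *H2-Ab1* at 99.4 ± 81.5 and *H2-Eb1* at 46.1 ± 35.2. *Cd74* thus stood above both classical heavy chains in hypHSCs and below both in qHSCs. In hypHSCs the neighbours from *H2-D1* to *H2-Ab1* in that order differed by less than the larger of their SDs, and in qHSCs those from *H2-Aa* to *H2-Eb1* did. *H2-M2* reached 30.8 ± 13.9 FPKM in hypHSCs, near *H2-Q7* at 22.7 ± 11.2, and 0.321 ± 0.295 in qHSCs. *Ciita* was at 0.412 ± 0.313 and 0.21 ± 0.153 FPKM.

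Ratios of 2 genes within a library do not depend on how it was scaled, and 6 were compared by exact two-sided permutation tests, for which the smallest possible p was 0.00794. The ratio of *Cd74* to *H2-Ab1* was higher in hypHSCs, without overlap (difference in mean log2 ratio 0.65, exact permutation p = 0.00794, adjusted p = 0.0476). Its log2 value was 4.25 ± 0.10 (SD, n = 5) in hypHSCs and 3.60 ± 0.35 in qHSCs. Without hypHSC 3 the adjusted p was 0.0952. The other 5 did not pass. They were *Tap1* to *Tap2* (difference in mean log2 ratio 0.90, exact permutation p = 0.0794, adjusted p = 0.238), *H2-DMa* to *H2-DMb1* (difference in mean log2 ratio -0.31, exact permutation p = 0.167, adjusted p = 0.333) and *H2-K1* to *H2-D1* (difference in mean log2 ratio 0.49, exact permutation p = 0.302, adjusted p = 0.452). *H2-Aa* to *H2-Ab1* (difference in mean log2 ratio 0.24, exact permutation p = 0.492, adjusted p = 0.571) and *Cd80* to *Cd86* (difference in mean log2 ratio -0.51, exact permutation p = 0.571, adjusted p = 0.571) completed the set.

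Genes that feed both pathways were read from lists drawn up by general knowledge. Of 53 such genes 50 were tested, and 14 were higher, 7 lower and 29 not called, with a median log2 fold change of 0.01. Over all genes tested 17.8% were higher and 21.7% lower, and the list counts below are descriptions to be read against these shares. Class II supply had 7 of 15 higher and none lower. *Ctss*, cathepsin S, which trims the invariant chain, had 272505 to 391358 normalized counts in hypHSCs and 883 to 15479 in qHSCs, and its difference on the log2 scale was 6.71 ± 0.68 (SE), adjusted p = 1.5e-05. *Ifi30*, the thiol reductase GILT, was higher at 4.44 (adjusted p = 6.24e-06), as were *Lgmn*, legumain, at 1.81 (adjusted p = 0.00146) and *Marchf1*, the ligase that removes class II and CD86 from the surface, at 4.10 (adjusted p = 0.000397). *Rfx5*, a factor that binds the X box, was not called, at -0.54 (adjusted p = 0.201), and neither was *Creb1*, the largest negative value of that list, at -0.86 (adjusted p = 0.0626). Class I supply had 1 of 12 lower and none higher. *Erap1*, which trims peptides in the endoplasmic reticulum, was lower at -1.01 (adjusted p = 0.00029). The immunoproteasome genes *Psmb8*, at -0.33 (adjusted p = 0.413), and *Psmb9*, at -0.53 (adjusted p = 0.124), were not called, and the same held for *Nlrc5*, the class I transactivator, at -0.76 (adjusted p = 0.18), and *Psme3*, at 0.997 (adjusted p = 0.0369).

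The interferon-gamma input to both pathways gave 2 of 9 higher and 3 lower. *Irf1*, a factor of the class I interferon element, was lower at -1.94 (adjusted p = 0.00145). *Irf8*, a factor of myeloid cells, was higher at 1.63 (adjusted p = 0.000857), and *Ifngr2*, a receptor subunit, at 1.65 (adjusted p = 5.58e-05). Of the other costimulation and checkpoint ligands, 7 of 10 were tested, with 3 higher and 1 lower. *Vsir*, which encodes VISTA, was higher at 6.42 (adjusted p = 0.000161), and so was *Cd274*, PD-L1, at 2.03 (adjusted p = 0.00383). *Lgals9*, galectin-9, was lower at -1.89 (adjusted p = 0.00359), and *Cd40*, at 0.63 (adjusted p = 0.0776), was not called. Among 7 class I-like genes, 2 were higher and 2 lower. *Fcgrt*, the neonatal Fc receptor, was lower at -2.09 (adjusted p = 0.00469), as was the joint entry of *Raet1a* to *Raet1e* and *H60b*, whose reads cannot be told apart, at -2.52 (adjusted p = 0.0011), while *Ulbp1* was higher at 3.30 (adjusted p = 0.00101). The number of lower genes over all 5 lists was 12 without hypHSC 2 and 13 with the hypHSCs at 12 weeks alone.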

How the data were processed

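RNA was sequenced from sorted hypHSCs and qHSCs in 10 libraries, 5 per group, grouped by their titles. Per the labels and the study's methods, libraries were unstranded and sequenced at both ends of fragments (59 bases), and the authors mapped reads to mm39 (GRCm39) with STAR, counted them per gene with featureCounts (Subread 1.5.0) and divided the counts by DESeq2 size factors. The deposited values are this signal per gene, the normalized count. Multiplied by 1 factor per library, all values became whole reads (100%, within a tolerance of 0.0051), which were used for depth, FPKM, DESeq2 1.42.0 and edgeR 4.0.16. Because the deposited unit is not a raw count, the main test was limma 3.58.1 (lmFit, eBayes with trend, R 4.3.3) on log2(normalized count + 1), with p-values adjusted after Benjamini and Hochberg over 14630 genes, namely the entries that carried a symbol and had 10 normalized counts or more in 5 or more of the 10 libraries. Fold changes on this scale are differences of mean log2 values, they depend on the pseudocount for low genes and can differ from those of the count models.

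The members and lists were chosen with earlier results of these data known. All members that passed the filter are named, and of the others those with at least 10 normalized counts in a library. Values in each library are given for the main class I, class II and costimulatory genes and for members with a mean of at least 100, and of the pathway genes a preset few and the extremes of each list, except 1 gene that is not reported here. FPKM used the length of the GENCODE vM39 canonical transcript. Stretches of 59 bases shared between transcripts, and exon overlaps, came from the same annotation. Promoter windows were read from RefSeq (GRCm38.p6). Ratios were compared by exact two-sided permutation over the 252 arrangements, adjusted over 6. The fit was tested on simulated data before it was run. Alternatives changed the pseudocount, filter, scaling, test, block, diet duration or libraries.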

Additional observations from a re-analysis of the deposited data

Results flagged for a closer look

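In 82 groups of 5 libraries (41 tested genes, each in hypHSCs and in qHSCs, on the log2 scale) 6 values stood apart from the other 4 of their group by Dixon's criterion, which chance alone meets in about 1 group in 20. HypHSC 5 accounted for 4 of them. *H2-Ob* had no read (0.00) in hypHSC 5, against 38.8 to 91.1 normalized counts in the other hypHSCs. *H2-Q2* was at 63.5 in hypHSC 5, against 309 to 551. *H2-Q7* was at 405 in hypHSC 5, against 1188 to 1816. *H2-T3* was at 3.02 in hypHSC 5, against 18.9 to 31.6. In the qHSCs, *H2-Ob* was at 13.6 in qHSC 2, against 29.9 to 35.1, and *B2m* was at 790525 in qHSC 3, against 623794 to 659055. The 3 class I genes with a low value in hypHSC 5 stayed lower in hypHSCs without that library.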

How the results depend on the processing

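Members were called in counts of 8 to 12 higher and 16 to 23 lower over 24 alternatives, against 11 and 20 as reported, and 23 of the 41 tested members kept direction and call in all of them. Without 1 library in turn the counts were 11 to 12 and 17 to 20. Relative to the deposited scaling, the median of all genes moved on the log2 scale. The shift was -0.35 (same total), 0.12 (same upper quartile) and -0.93 (*Hprt*, *Pgk1* and *Actb*). A factor per library shifts all genes alike, apart from the effect of the pseudocount. The distance of a class median to the median of all genes was therefore fixed in advance and tests nothing. It was 2.56 to 2.57 for the class II chains and -1.57 to -1.56 for classical class I. The pathway genes gave 9 higher with the scaling on *Hprt*, *Pgk1* and *Actb*, and 16 lower (same total), 23 lower (*Hprt*, *Pgk1* and *Actb*) and 13 lower (12 weeks only), against 14 and 7, and 7 to 12 lower without 1 library in turn.

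Signs turned in members that were not called and in ratios that did not pass. With DESeq2 and edgeR the log2 fold change was 0.35 and 0.36 for *H2-Oa*, 0.67 and 0.67 for *H2-Ob* and 0.95 and 0.91 for *H2-M5*, and edgeR gave 0.0016 for *H2-T24*. Without 1 library in turn values ran from -0.97 to 0.73 for *H2-Oa*, -0.70 to 0.93 for *H2-Ob* and -0.31 to 0.20 for *H2-T24*. With hypHSC 1 to 3 alone, added after seeing the data, they were 0.64, 1.08 and 0.38. *H2-Ob* was at 0.13 with a pseudocount of 5. *H2-K2* was at -0.20 (same total) and -0.78 (*Hprt*, *Pgk1* and *Actb*), the scaling that also gave -0.36 for *H2-Ke6* and -0.10 for *Cd1d1*. At 12 weeks only, the ratio *H2-Aa* to *H2-Ab1* was -0.10, *Cd80* to *Cd86* was 0.093, and *Cd74* to *H2-Ab1* stayed at 0.65 with an adjusted exact p of 0.214 from 3 against 5 libraries. With so few libraries the permutation test has fewer arrangements and a higher smallest possible p. No conclusion is drawn from the missed threshold. Without 1 library in turn *Cd74* to *H2-Ab1* was 0.50 to 0.72, *Cd80* to *Cd86* -0.97 to 0.051 and *H2-Aa* to *H2-Ab1* 0.11 to 0.44. The cause was not tested.

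With the replicate number as a block, the counts were again 11 and 20. Samples of 1 number correlated at 0.01 to 0.13 in their deviations, and in 1 of 5 pairs best with their own number, so the numbers are not taken to pair the samples. Genes near the floor of 2.25 to 4.54 normalized counts, such as *H2-M11*, were not resolved at this depth.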
